A study of Mus musculus with 19 samples.

Results

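The genes described are 10 components of the actin cytoskeleton, taken as a list of names: the cytoplasmic actins Actb and Actg1, the filament bundler fascin (Fscn1), the cross-linker Flna, the adhesion protein Vcl, the myosin heavy chain Myh9, the tropomyosins Tpm1 and Tpm4, and the filament-binding proteins Cnn2 and Tagln2. All 10 were matched by symbol among the 24689 genes measured, and all passed the filter on low values. RNA was sequenced from whole tongue epithelium that had been separated from the muscle with collagenase and dispase, 15 days after induction of the transgenes, in littermates of 8 to 16 weeks of age. The study asks how active YAP, a transcriptional coactivator restrained by the Hippo pathway, and the papillomavirus oncogenes E6-E7 change oral epithelial progenitors.

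E mice (n = 5) were Krt14-CreERT/LSL-rtTA/tetON_E6-E7, Y mice (n = 3) were Krt14-CreERT/LSL-rtTA/tetON_YAP1S127A, and EY mice (n = 6) carried both tetON_E6-E7 and tetON_YAP1S127A beside Krt14-CreERT and LSL-rtTA. Of the controls, N mice 1 to 3 were Krt14-CreERT/LSL-rtTA, N mouse 4 carried LSL-rtTA and no Cre, and N mouse 5 was Krt14-CreERT/tetON_E6-E7/tetON_YAP1S127A and had no rtTA. Induction was by tamoxifen injected into the tongue and doxycycline in the chow, and the study's methods add a tetON_H2B-GFP reporter that the sample labels do not list. The Krt14 promoter directs Cre to basal keratinocytes, so the transgenes are switched on in these cells and their progeny, whereas the RNA came from every cell of the dissected sheet. The 10 markers of oral squamous epithelium were detected in each group, with Krt13 the most abundant at a mean of 48941 TPM. Between 8269674 and 11007304 reads stood behind each library, and Fscn1 was the member with the fewest, at 13 reads in N mouse 4.

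Actin monomers assemble into filaments whose shape is set by their partners. Fascin packs filaments into the tight bundles of filopodia and invasive protrusions, filamin links them into networks, vinculin couples them to integrin and cadherin adhesions, and non-muscle myosin II pulls on them, while tropomyosins, calponins and transgelins run along or decorate their sides. In stratified epithelia fascin is scarce and is known for its appearance in many carcinomas, and YAP is itself responsive to tension carried by the actin cytoskeleton.

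Levels are given in TPM, transcripts scaled to a sum of 1000000 per library and corrected for gene length, and differences as log2 fold changes of TPM + 0.1, a scale that understates changes of genes with low values. A differentially expressed gene (DEG) had a Benjamini-Hochberg adjusted p below 0.01 over the 22745 genes tested by limma and an absolute log2 fold change above 1, and a gene past the first limit alone is said to have changed. The median gene of EY epithelia was 0.33 above N, that of Y 0.13 and that of E 0.07, so values after median-of-ratios scaling, which brings these medians to 0.011, -0.03 and -0.02, are given beside them. This scaling took the share of higher genes among the DEGs from 68.8% of 4157 to 43.8% of 3512 in EY and from 75.8% of 1042 to 57.2% of 916 in Y, while in E it was 96.4% of 274 and 94.9% of 236.

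Actin genes rose broadly in EY epithelia. Of the 10 members, 9 were DEGs above N, with Actb as the exception, where 12.6% of all genes tested were higher DEGs. The same number, 9, changed upward without a limit on the fold, against 23.9% of all genes, and in 9 every EY mouse lay above every N mouse, as in 20.9% of all genes. The median log2 fold change of the members was 1.338. After scaling the median was 0.96, and 4 members remained higher DEGs (Fscn1, Myh9, Tagln2 and Tpm1) against 6.77% of all genes, while 9 had changed upward against 13.5%. Because the RNA is from whole tissue, more cells of a kind and more RNA per cell cannot be told apart in this or any later comparison. The EY, Y and E comparisons share the same 5 N mice, so they are not independent of each other.

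**Figure D1:**
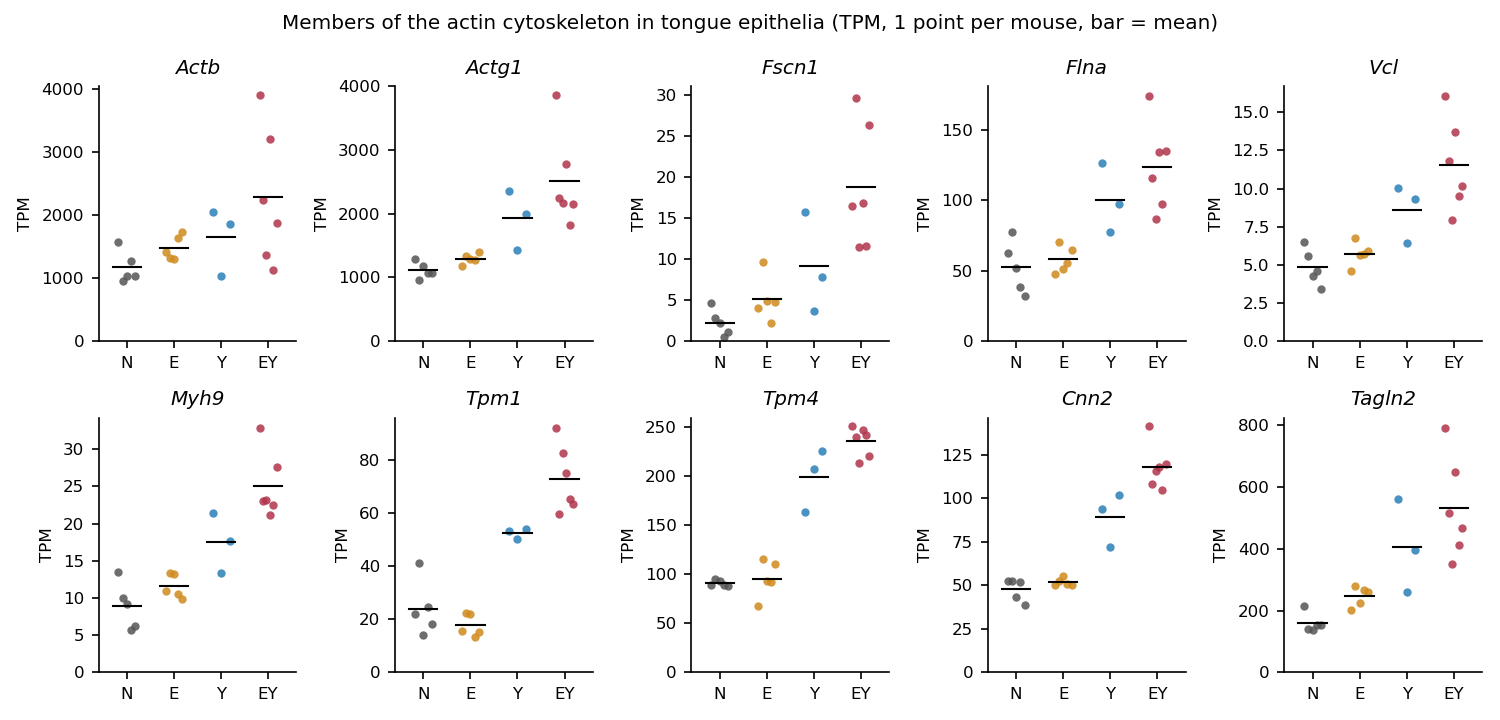
TPM of the 10 members in each mouse, with a linear axis for each gene, points for mice and bars for the group means (n = 5 N, 5 E, 3 Y and 6 EY). All EY mice lie above all N mice for each gene except Actb, whose EY values run from 1132 to 3903 TPM.

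The actins supply the filaments themselves. Actg1 stood at 1280.0, 963, 1181, 1063 and 1059 TPM in N mice 1 to 5, at 1176, 1334, 1282, 1273 and 1399.7 in E mice 1 to 5 and at 2356, 1429 and 1996 in Y mice 1 to 3. The lowest EY mouse had 1824, the median was 2209 and the highest mouse, EY 1, had 3858 TPM. The Y and EY mice were thus all above the N and E mice, and Y overlapped EY. The log2 fold change of Actg1 in EY was 1.14 (standard error 0.17, limma adjusted p = 2.98e-05) and 0.76 after scaling (adjusted p = 0.00227), where the gene had changed but was no longer a DEG.

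Actb, the other cytoplasmic actin, was more variable. It measured 1566, 957, 1039, 1263 and 1039 TPM in N, 1419, 1319, 1299.9, 1637 and 1735 in E, and 2048, 1032 and 1857 in Y mice, and in EY mice it ran from 1132 through a median of 2061 to 3903. EY 5, the lowest EY mouse, and EY 3 with 1359 TPM lay inside the N range, and so did Y 2. The EY difference of 0.85 (standard error 0.28) did not pass the threshold (limma adjusted p = 0.0208), and it did when EY 5 was left out (1.03, adjusted p = 0.00435). The coding sequences of Actb and Actg1 are similar and the genome holds processed copies of both. Reads may therefore be lost or exchanged between them, and the division between the 2 genes is uncertain. Together they made 2282 ± 350 TPM in N (SD, n = 5), with 2775 ± 241 for E (n = 5), 3572 ± 1001 for Y (n = 3) and 4791 ± 1781 for EY mice (n = 6).

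Fscn1 was the member with the fewest reads in any library and with the largest fold change in EY. It was at 4.61, 2.74, 2.19, 0.498 and 1.12 TPM in N mice 1 to 5, at 4.01, 9.58, 4.83, 2.19 and 4.74 in E mice 1 to 5, and at 15.7, 3.71 and 7.83 in Y mice 1 to 3. EY mice ranged from 11.5 through a median of 16.6 to 29.7 TPM. Every EY mouse was above every N and E mouse, whereas Y 2 fell inside the N range and Y 1 inside the EY range. The N mice themselves spread widely, with N 4, which has no Cre, the lowest and N 1 the highest. The log2 fold change in EY was 3.24 (95% interval 2.19 to 4.29, limma adjusted p = 4.42e-05), or 9.46-fold, and 2.88 after scaling. With only the 3 N mice that carry both regulatory transgenes it was 2.49 (limma adjusted p = 0.000742), since N 4 and N 5 hold the lowest values. The other fascin genes stayed low, and Fscn1 made up 93.7% ± 6.50 (SD, n = 6) of the summed TPM of Fscn1, Fscn2 and Fscn3 in EY against 79.2% ± 16.2 (n = 5) in N.

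Filamin A and vinculin tie filaments to each other and to adhesions. Flna measured 62.8, 77.5, 52.0, 38.3 and 31.9 TPM in N, 47.4, 70.6, 51.4, 55.3 and 64.9 in E, and 126, 77.4 and 97.0 in Y mice, and in EY it went from 86.5 through 125 to 174. The lowest Y mouse lay within 0.1 TPM of N 2, so Y and N overlapped at that point, while EY and N did not. Vcl was at 6.51, 5.59, 4.29, 4.61 and 3.38 TPM in N, 4.62, 6.75, 5.67, 5.71 and 5.91 in E and 10.03, 6.40 and 9.30 in Y mice, with 7.90, 10.995 and 16.1 as the lowest, median and highest of EY. The EY mice again cleared N and E. In EY the log2 fold changes were 1.27 for Flna and 1.22 for Vcl (limma adjusted p = 0.000157 and 5.89e-05), and 0.90 and 0.85 after scaling. With only N mice 1 to 3 as controls Flna was 0.93 higher (limma adjusted p = 0.00311), so it had changed but was no DEG.

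Myh9 encodes the heavy chain of non-muscle myosin IIA, the motor that contracts these filaments. It was at 13.5, 10.03, 9.21, 5.67 and 6.29 TPM in N mice 1 to 5, at 10.98, 13.3, 13.2, 10.6 and 9.91 in E and at 21.4, 13.3 and 17.7 in Y, and EY mice had 21.2, 23.1 and 32.9 as lowest, median and highest. N 1 overlapped Y 2, whereas all EY mice exceeded all N and E mice. The EY log2 fold change was 1.53 (standard error 0.20, limma adjusted p = 6.52e-06) and 1.16 after scaling.

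Tropomyosins coat filaments and govern which other proteins may bind. Tpm1 read 21.9, 41.1, 14.1, 24.6 and 18.2 TPM in N mice 1 to 5, 15.7, 22.3, 22.0, 13.4 and 15.3 in E mice 1 to 5, and 53.1, 50.3 and 53.9 in Y mice 1 to 3. EY mice ran from 59.7 through 70.2 to 92.1. The 4 groups fell into a low pair and a high pair with no overlap between the pairs, although N 2 stood well above the other N mice. Tpm1 is the one member whose group mean was lowest in E, with 17.8 ± 4.11 TPM (SD, n = 5) where N had 24.0 ± 10.3 (n = 5), a difference that did not pass the test (log2 fold change -0.37, limma adjusted p = 0.501). In EY it was 1.68 above N (limma adjusted p = 6.00e-06) and 1.30 after scaling.

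Tpm4, the more abundant of these tropomyosins, was the steadiest member among controls. Its TPM were 89.2, 95.2, 93.5, 89.0 and 88.1 in N, 67.4, 115, 93.4, 91.9 and 111 in E, and 164, 208 and 226 in Y mice, and it rose to 213, 241 and 251.02 as lowest, median and highest in EY. N, with an SD of 3.14 around 91.0, and E overlapped, and both lay below all Y and EY mice. The EY log2 fold change was 1.37 with a standard error of 0.12 (limma adjusted p = 5.93e-08), and 0.99 after scaling, just under the limit for a DEG.

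Calponin 2 and transgelin 2 bind along filaments and are the non-muscle forms of smooth muscle proteins. Cnn2 was at 52.7, 52.3, 43.2, 51.8 and 38.9 TPM in N, 50.3, 52.6, 55.6, 51.0 and 50.3 in E, and 93.9, 72.2 and 102 in Y, against 105, 117 and 141 as lowest, median and highest in EY epithelia. All 3 Y mice were above N and E and below all EY mice, which held for Cnn2 and Tpm1 alone among the members. These were the 2 of 10 in which every EY mouse exceeded every Y mouse, as in 11.1% of all genes tested. Tagln2 was at 214, 141, 137, 153 and 152 TPM in N, 201, 279, 225, 265 and 259.6 in E and 561, 259 and 397 in Y, and EY mice ran from 350.4 through 492 to 792. All E mice sat above N mice 2 to 5, and E 1 alone fell below N 1. In EY the log2 fold change was 1.31 for Cnn2 (limma adjusted p = 2.74e-08) and 1.702 for Tagln2 (adjusted p = 4.47e-06), and after scaling 0.93 and 1.33.

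**Figure D2:**
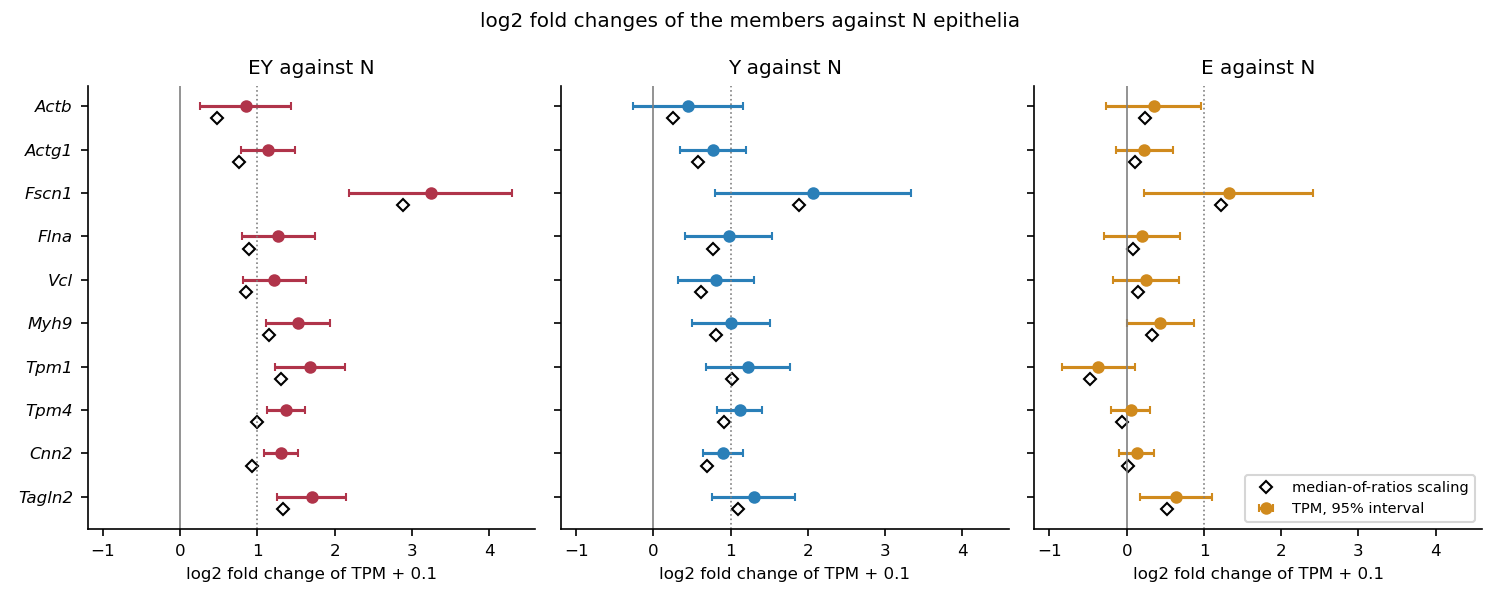
Log2 fold changes of TPM + 0.1 against N for EY, Y and E epithelia, with circles for TPM, bars for 95% intervals, diamonds for values after median-of-ratios scaling and a dotted line at 1. Fscn1 has the largest EY value, 3.24, and the widest interval, while Tpm1 is the member below 0 in E on both scales.

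Promoter sequence of the members was also inspected. RefSeq windows of the GRCm38.p6 build were at hand for 9 members (Actb had none in the table), and 250 bases before to 50 bases after each start were searched on both strands for GGAATG, the core motif of the TEAD factors through which YAP acts, and for the CArG box of serum response factor. The TEAD motif was present in 4 of 9 windows (Flna, Tagln2 at 2 places, Tpm1 and Vcl), against 14.7% of all 32851 windows, and the CArG box in 3 of 9 (Actg1, Cnn2 and Vcl), against 1.63%. The stretches of Actg1, Cnn2, Flna and Vcl before the start that lie outside annotated exons follow as examples of both motifs, read 5′ to 3′ on the strand of the gene with the match in capitals. A match describes letters and shows no binding, and whether either motif bears on the changes of the members was not tested.
Actg1, chr11:120348543-120348677, minus strand: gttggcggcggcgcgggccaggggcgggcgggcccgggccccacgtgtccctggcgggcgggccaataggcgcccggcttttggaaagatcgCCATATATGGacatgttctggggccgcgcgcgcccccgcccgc
Cnn2, chr10:79988350-79988583, plus strand: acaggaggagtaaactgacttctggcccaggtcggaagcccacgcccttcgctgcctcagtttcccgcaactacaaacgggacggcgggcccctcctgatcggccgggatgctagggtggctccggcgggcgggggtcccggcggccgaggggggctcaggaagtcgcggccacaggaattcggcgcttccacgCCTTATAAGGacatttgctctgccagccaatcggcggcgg
Flna, chrX:74246556-74246784, minus strand: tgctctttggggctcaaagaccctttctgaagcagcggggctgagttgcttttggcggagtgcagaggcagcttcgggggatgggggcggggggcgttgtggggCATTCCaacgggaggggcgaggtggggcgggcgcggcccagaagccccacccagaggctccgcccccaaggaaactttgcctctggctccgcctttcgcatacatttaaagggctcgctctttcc
Vcl, chr14:20929148-20929397, plus strand: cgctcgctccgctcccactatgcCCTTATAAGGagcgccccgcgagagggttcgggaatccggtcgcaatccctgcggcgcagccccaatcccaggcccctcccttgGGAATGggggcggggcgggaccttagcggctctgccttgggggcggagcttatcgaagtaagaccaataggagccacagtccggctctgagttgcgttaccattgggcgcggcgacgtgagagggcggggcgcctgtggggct
The windows of Fscn1, Myh9 and Tpm4 held neither motif, which says only that these letters do not occur there.

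Active YAP without E6-E7 raised some of the members. In Y epithelia 4 were DEGs above N (Myh9, Tagln2, Tpm1 and Tpm4), where 3.47% of all genes tested were. With Cnn2 5 had changed upward, against 7.17%. In 5 members (Actg1, Cnn2, Tagln2, Tpm1 and Tpm4) all Y mice were above all N mice, as in 15.5% of all genes. Log2 fold changes were 1.01 for Myh9, 1.30 for Tagln2, 1.22 for Tpm1, 1.12 for Tpm4 and 0.90 for Cnn2. Their limma adjusted p were 0.00739, 0.00209, 0.00362, 4.91e-05 and 0.000114. Actg1 (0.77), Flna (0.98) and Vcl (0.81) had unadjusted p under 0.05 but did not pass (limma adjusted p = 0.0143, 0.0184 and 0.0235), and Fscn1, at 2.07 with a 95% interval from 0.80 to 3.34, had an adjusted p of 0.025 (1.32 and 0.141 with only N mice 1 to 3, a fit in which Myh9, Tagln2 and Tpm1 lost their calls). For Actb the difference was 0.45 (limma adjusted p = 0.417).

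These calls rested on few mice. After scaling, 0 members were DEGs by limma and 2 had changed upward (Cnn2 and Tpm4). In that fit 2.30% of all genes were higher DEGs and 3.90% changed upward. On TPM 9 members had an unadjusted p under 0.05, and voom on the recovered reads called 3 as DEGs and 7 as changed. No share of all genes was computed for unadjusted p or for voom, here or in the comparisons below. The scaled log2 fold changes of Tagln2 and Tpm1 were 1.098 and 1.02, above the fold limit, with limma adjusted p just over the threshold (0.0104 and 0.0128). Without Y 1 or without Y 3 only 1 member was a DEG and 2 had changed. Myh9 also lost its call without N 3, N 4 or N 5 (limma adjusted p = 0.0115, 0.0174 and 0.0189), and Tpm1 without Y 2 (0.0132). Tpm4 stayed a DEG in all 19 fits without 1 mouse.

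With E6-E7 alone, no member passed the test against N. In E epithelia limma called 0 of the 10 members as DEGs and 0 as changed. Of all genes, 1.16% were higher DEGs and 1.71% changed upward. At an unadjusted p under 0.05 were 2 members (Fscn1 and Tagln2), and voom called 0. Fscn1 was higher by 1.32 (95% interval 0.22 to 2.42, limma adjusted p = 0.22) and Tagln2 by 0.64 (0.17 to 1.10, adjusted p = 0.147). With only N mice 1 to 3 as controls the Fscn1 difference was 0.57 (limma adjusted p = 0.74). No member separated all E mice from all N mice, a count for which no share of all genes was computed. The intervals of Cnn2 (-0.10 to 0.36) and Tpm4 (-0.20 to 0.31) were the narrowest and left no room for a change as large as in Y.

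Adding active YAP to E6-E7 was tested by EY against E. There 7 members were DEGs (Fscn1, Myh9, Flna, Cnn2, Tagln2, Tpm1 and Tpm4) and 9 had changed, where 7.82% and 18.1% of all genes tested were higher. In 9 members every EY mouse exceeded every E mouse, against 17.6% of all genes. Tpm1 differed most, by 2.05 (limma adjusted p = 1.24e-06), followed by Fscn1 with 1.92 (adjusted p = 0.00557) and Tpm4 with 1.32 (adjusted p = 2.00e-07). After scaling 2 members were higher DEGs (Tpm1 and Tpm4) and 8 had changed upward, against 4.40% and 11.2% of all genes. In this comparison the share of higher genes among DEGs went from 61.1% of 2914 to 38.9% of 2572. Fscn1 did not pass after scaling (1.66, limma adjusted p = 0.013), and it was a DEG in 11 of 19 fits without 1 mouse, the lowest value being 1.67. Without EY 1 only 4 members were DEGs.

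Adding E6-E7 to active YAP was tested by EY against Y. There limma gave 0 DEGs and 0 changed members, where 1.07% of all genes were higher DEGs and 2.34% changed upward. At an unadjusted p under 0.05 were 2 members (Myh9 and Cnn2), and voom called 0. All 10 log2 fold changes were above 0, from 0.26 for Tpm4 to 1.17 for Fscn1 (95% interval -0.06 to 2.40, limma adjusted p = 0.232), with a median of 0.41 where the median of all genes was 0.18. Scaling brought these medians to 0.23 and 0.02, and the higher share of DEGs from 53.5% of 454 to 30.3% of 406. With 3 Y mice the intervals are wide, so the values of EY and Y were not shown to differ, nor to be alike.

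Whether the joint effect of the transgenes departs from the sum of their single effects was tested by the interaction. For the members limma called 0, against 0.176% of all genes tested, 1 member had an unadjusted p under 0.05, and voom called 0. That member was Tpm1, with 0.83 (95% interval 0.12 to 1.54, limma adjusted p = 0.28). For Fscn1 the interaction was -0.15 with an interval from -1.794 to 1.50, so neither a clear excess nor a clear shortfall was detectable.

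Ratios within a mouse do not depend on scaling between mice. The log2 ratio of Tpm4 to Tpm1 was 2.09, 2.37, 2.08, 2.77 and 2.85 in E mice 1 to 5 and 1.45, 2.01, 1.37, 1.72, 1.89 and 1.80 in EY mice 1 to 6. All EY mice thus had relatively more Tpm1 than all E mice, a difference of -0.73 (two-sided exact permutation test, p = 0.00433, the smallest that 6 against 5 mice allow, adjusted p = 0.0433 over 10 tests). The adjusted p was above 0.05 in each of the 11 tests without 1 E or EY mouse. With 5 mice in each group the smallest p is 0.00794, and it is larger still without an E mouse. Such a p alone cannot pass after adjustment over 10 tests, so these lost calls decide nothing. The difference itself ran from -0.815 to -0.622. N mice, from 1.21 to 2.72, overlapped both groups, and the other 4 comparisons of this ratio did not pass. The ratio of Actb to Actg1 was lower in EY than in E by a mean of 0.41 with overlap between the mice (exact permutation p = 0.039, adjusted p = 0.195), and its other comparisons did not pass either.

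**Figure D3:**
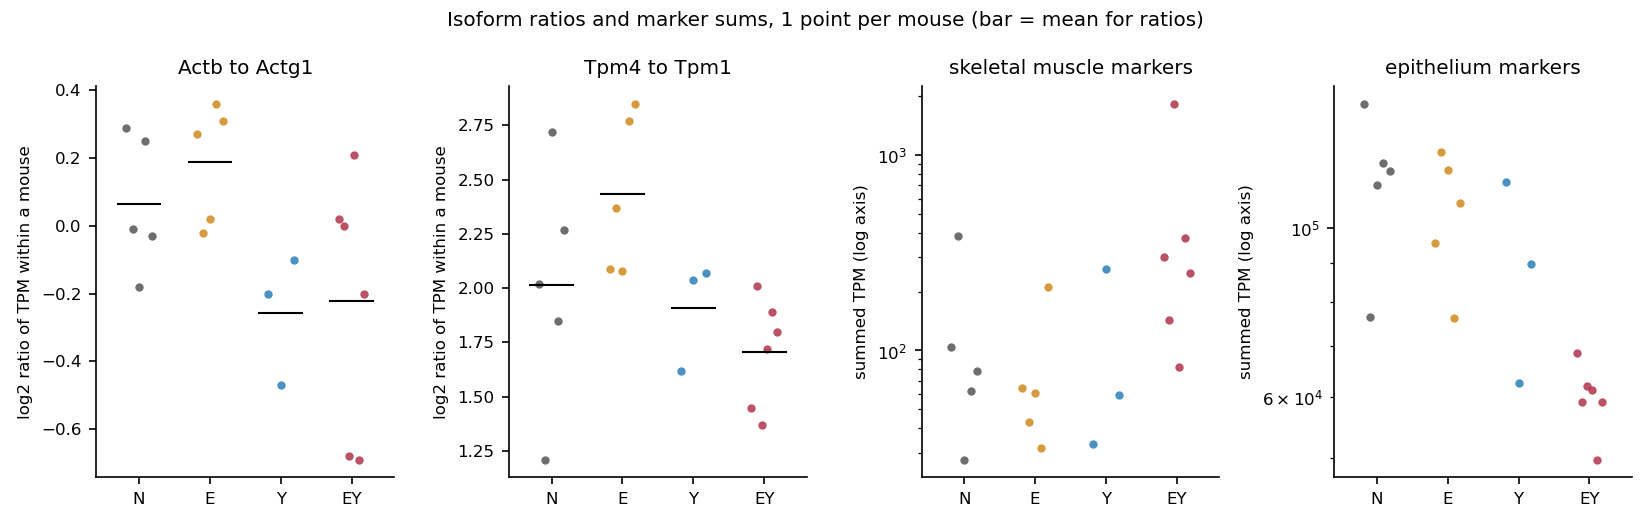
Log2 ratios of Actb to Actg1 and of Tpm4 to Tpm1 within each mouse, and summed TPM of skeletal muscle and epithelial markers on log axes, with points for mice and bars for the means of the ratios. EY mouse 3 has the highest muscle sum, 1833 TPM, and EY epithelia have lower epithelial marker sums than N epithelia.

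Closest relatives of the members were followed to see whether a whole family moved. The median log2 fold change of 17 relatives was 0.90 in EY, with 7 higher DEGs against 12.6% of all genes. After scaling these were 0.53 and 4, against 6.77%. In Y the median was -0.048, or -0.182 after scaling, where that of the members was 0.991. There 7 of the 17 were above 0 and 2 were higher DEGs, against 3.47% of all genes. In E limma called 0 of them as DEGs, where 1.16% of all genes were higher DEGs. Cnn3, a calponin of non-muscle cells, had the largest EY change: N epithelia held 8.21 ± 0.418 TPM (SD, n = 5), Y epithelia 33.7 ± 5.88 (n = 3) and EY epithelia 49.9 ± 12.9 (n = 6), which made log2 fold changes of 2.55 for EY and 2.01 for Y. Its share of all calponin TPM went from 14.8% in N and 14.2% in E to 27.4% in Y and 29.3% in EY epithelia.

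Of the non-muscle myosin II heavy chains, Myh9 made up 53.6% of TPM in N and 72.4% in EY, while Myh14, the form typical of differentiated epithelia, differed little (log2 fold change 0.17, limma adjusted p = 0.595, and -0.20 after scaling) and went from 43.5% to 22.9%. Tpm2 and Tpm3 rose by 1.23 and 1.25, and all tropomyosins summed to 213 ± 24.6 TPM in N (SD, n = 5) but 543 ± 72.4 in EY (n = 6). Flnc, Cnn1 and Myh10 were DEGs at low levels, at most 2.22 TPM in any mouse, and Tagln3, the neuronal transgelin, fell by 1.90. The muscle actins Acta1, Acta2, Actc1 and Actg2 did not pass the test, and neither did Fscn2, Fscn3, Tagln or Vil1.

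The wider actin machinery was read from 7 further lists. Branched nucleation, the making of side branches by the Arp2/3 complex, had 12 of 18 genes changed upward in EY and 0 downward, with a median log2 fold change of 0.64 that became 0.27 after scaling, when 5 were higher and 3 lower. Over all genes tested 13.5% were higher and 13.8% lower after scaling. The complex subunits Arpc1b (1.74), Actr2 (1.18) and Actr3 (1.09) were the 3 DEGs of this list, where 12.6% of all genes were higher DEGs. After scaling the list held 1 higher DEG, against 6.77% of all genes. Actr3 was at 37.6 ± 2.67 TPM in N (SD, n = 5), 60.5 ± 1.43 in Y (n = 3) and 79.8 ± 3.57 in EY (n = 6). Formins, which elongate unbranched filaments, were divided: 4 of 11 rose and 3 fell, with a median of 0.29, and after scaling 1 was higher and 3 lower, with a median of -0.08. Diaph3, which acts in the cytokinetic ring, rose by 2.93 and Fmnl3 by 1.08, while Fmn1 fell by 1.20. All 3 had low levels, and Fmnl3 was no DEG without N 5 (0.91). The formin list held 3 higher and 2 lower DEGs, and 1 and 3 after scaling. Over all 22745 genes tested, scaling gave 1540 higher and 1972 lower DEGs.

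Genes of monomer binding and filament turnover had 14 of 19 changed upward in EY and 1 downward and a median of 1.00, or 0.63 after scaling with 10 higher and 2 lower, against the same 13.5% and 13.8% of all genes. Tmsb10, a thymosin that sequesters monomers, measured 152 ± 45.2 TPM in N (SD, n = 5), 268 ± 31.2 in E (n = 5), 893 ± 36.1 in Y (n = 3) and 1573 ± 345 in EY (n = 6). It was higher than N by 3.39 for EY, 2.60 for Y and 0.86 for E, of which the last did not pass (limma adjusted p = 0.0133). The capping proteins Twf2 and Capg rose by 1.69 and 1.53, and the profilin Pfn2 fell by 2.32 in EY. Bundling and cross-linking genes had 11 of 17 higher and 2 lower, with a median of 1.05, and after scaling 8 higher and 2 lower, with a median of 0.67.

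The α-actinin gene Actn1, a cross-linker of stress fibres, rose by 3.29 in EY and 2.58 in Y, and measured 1.38 ± 0.505 TPM in N (SD, n = 5), 1.58 ± 0.691 in E (n = 5) and 14.03 ± 3.42 in EY (n = 6). Anln, the anillin of the cleavage furrow, exceeded N by 3.44 (EY), 2.30 (Y) and 1.55 (E) and was a DEG each time. Pdlim7, a partner of α-actinin, rose by 1.42 and Espn, an espin that bundles filaments in microvilli, fell by 2.26. Of the myosin light chains and their regulators 7 of 12 were higher and 0 lower in EY (median 0.76), and 5 and 1 after scaling (median 0.40). Cald1 encodes caldesmon, which restrains myosin on filaments, and was at 0.849 ± 0.343 TPM in N and 0.798 ± 0.672 in E (n = 5 each) against 4.89 ± 0.581 (n = 3) in Y and 5.20 ± 1.22 (n = 6) in EY. Myl12a, a regulatory light chain, rose by 1.336 and the kinase Rock2 by 1.09. This list of 12 held 3 higher DEGs and, after scaling, 1, against 6.77% of all genes after scaling.

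Focal adhesion genes were higher in 15 of 27 and lower in 1 (median 0.85), and in 10 and 3 after scaling (median 0.48), among them Tes (1.69), Lims1 (1.43) and Trip6 (1.42), which are LIM domain proteins of adhesions and fibres. Membrane linkers were higher in 6 of 10 and lower in 1 (median 0.81), and in 4 and 2 after scaling (median 0.43). Msn, the ERM protein moesin, rose by 2.22 and Anxa2, an annexin, by 2.12, the latter with 97.8 ± 6.01 TPM in N (SD, n = 5) and 429 ± 72.9 in EY (n = 6), and Epb41l1 fell by 1.47. Over all genes tested 23.9% changed upward and 7.97% downward in EY, and 12.6% were higher and 5.71% lower DEGs. Scaling took the higher DEGs from 9 to 4 in monomer binding and turnover and from 9 to 3 in bundling and cross-linking. In focal adhesion they went from 9 to 4, and membrane linkers had 2 on both scales, against 6.77% of all genes after scaling.

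In Y epithelia the same lists had medians from -0.05 for formins to 0.71 for monomer binding and turnover, and after scaling from -0.22 to 0.51. In E epithelia the medians lay between 0.008 and 0.08, near the 0.07 of all genes, and Anln was the DEG by limma.

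**Figure D4:**
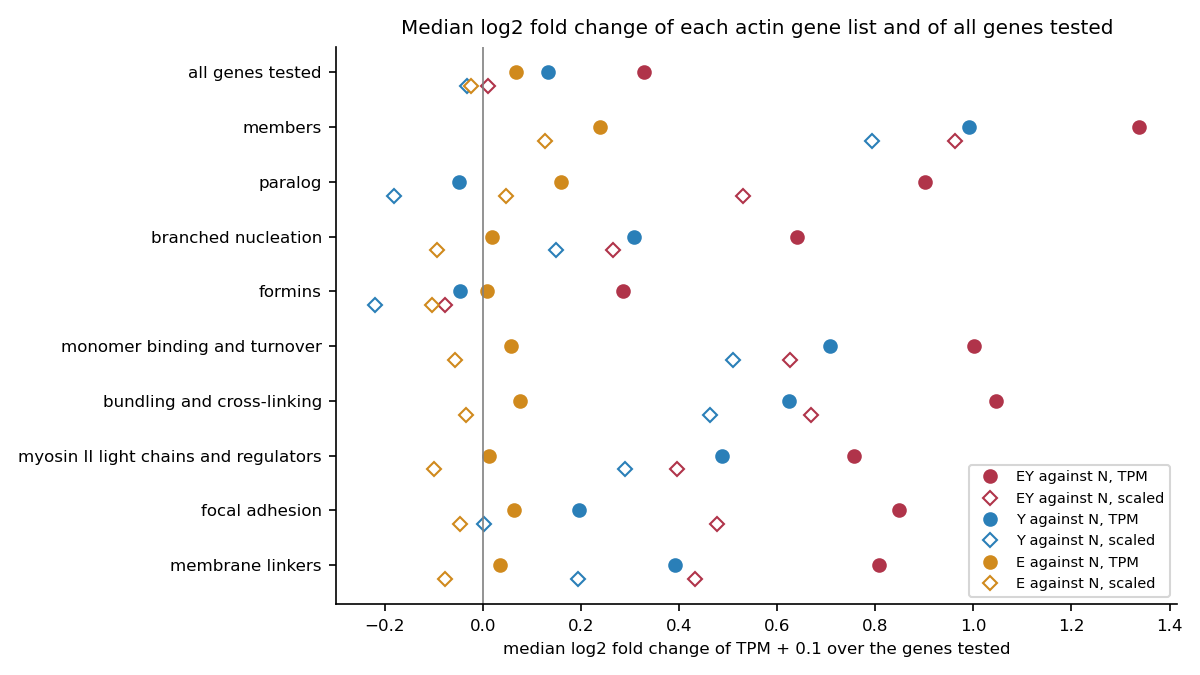
Median log2 fold change of TPM + 0.1 against N for all genes tested, the 10 members and the other actin gene lists, with circles for TPM, diamonds for values after scaling and colours for EY, Y and E. The members have the highest median in EY, 1.338 against 0.33 for all genes, and the formin median of EY is below 0 after scaling.

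Markers of neighbouring tissue were measured because many actin genes are shared with muscle. The 14 skeletal muscle markers, all in the data and none at 0 in every mouse, with Acta1 the most abundant, summed to 104, 385, 27.6, 61.9 and 78.5 TPM in N mice 1 to 5 and 64.3, 43.2, 60.6, 31.5 and 211 in E mice 1 to 5. They summed to 33.1, 262 and 59.1 TPM in Y mice 1 to 3 and to 299.9, 143, 1833, 81.9, 379 and 249 in EY mice 1 to 6. EY 3 thus stood far above the rest, and N 2 above the other controls, the mouse with the highest control Tpm1. Without EY 3, Tpm1 was 1.64 and Fscn1 3.36 above N in EY, and with the muscle markers as a covariate 1.52 and 3.40, all with limma adjusted p under 0.01 (2.22e-05, 7.19e-05, 4.99e-05 and 0.000134). With the covariate Actb also passed in EY against N (1.10, limma adjusted p = 0.00529), and Actg1 and Vcl became DEGs in EY against E (1.07 and 1.12). The same fit lost Fscn1 in EY against E (2.13, limma adjusted p = 0.0118) and Myh9 in Y against N (0.996, also 0.0118). All EY mice except EY 3 had muscle sums within the N range. In EY 4, the lowest of them at 81.9 TPM, Tpm1 was at 75.0, Fscn1 at 16.8 and Myh9 at 21.2 TPM.

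Smooth muscle and pericyte markers (8 of 8 in the data, Acta2 the most abundant) summed to 23.4, 14.9, 12.5, 11.2 and 12.9 TPM in N, 11.4, 22.1, 12.1, 10.5 and 10.4 in E, 38.3, 10.8 and 12.8 in Y and 28.4, 14.3, 30.6, 12.3, 13.8 and 18.9 in EY mice. The defining smooth muscle myosin Myh11 was near 0, at most 0.283 TPM in any mouse. Cspg4 was lower in every Y mouse (1.45 to 1.52 TPM) and every EY mouse (0.479 to 1.85) than in any N mouse (at least 2.77). Cnn1 went the other way in EY, at 0.316 to 0.802 TPM against at most 0.169 in N. The remaining markers of this list overlapped between EY and N. Fibroblast markers (9 of 9, Dcn the most abundant) summed to 341, 225, 94.3, 79.6 and 76.4 TPM in N, 113, 95.8, 79.4, 65.5 and 126 in E, 28.6, 55.3 and 43.7 in Y and 83.7, 97.3, 192, 34.6, 74.6 and 206 in EY mice. The fibroblast sums were lower in Y than in any N mouse, and EY overlapped N. Dcn alone was lower in every Y mouse (6.64 to 25.8 TPM) and every EY mouse (5.12 to 33.6) than in any N mouse (at least 45.3). The other fibroblast markers overlapped N in both groups. Endothelial markers (7 of 7, Egfl7 the most abundant) summed to 2.73, 1.51, 1.67, 0.622 and 0.701 TPM in N, 1.65, 1.73, 2.20, 1.50 and 2.64 in E, 2.66, 2.17 and 1.02 in Y and 6.56, 3.34, 9.17, 3.33, 3.10 and 3.72 in EY mice. These sums were low in all mice but highest in EY. Of the markers only Egfl7 was higher in every EY mouse (1.45 to 3.77 TPM) than in every N mouse (at most 1.17), and it overlapped Y. Pecam1, Cdh5, Kdr, Tek, Tie1 and Emcn overlapped between EY and N.

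Leukocyte markers (12 of 12, S100a8 the most abundant) summed to 784, 267, 129, 124 and 107 TPM in N, 312, 284, 287, 45.0 and 548 in E, 835, 1012.6 and 616 in Y and 1067, 765, 913, 1149.6, 480.0 and 267 in EY mice. Most of the Y sums, and over 0.5 of the sum in EY mice 1 to 5, came from S100a8 and S100a9, which both neutrophils and keratinocytes make. The other 10 markers, of which Lyz2 and Cd68 were the most abundant, summed to 259 ± 261 TPM in N (SD, n = 5), 256 ± 172 in E (n = 5), 77.2 ± 21.7 in Y (n = 3) and 245 ± 54.5 in EY (n = 6). Among them the neutrophil marker Retnlg was at 1.52 TPM or less in N mice and 2.68 or less in E mice, against 10.77, 0 and 21.2 in Y mice 1 to 3 and 53.4, 51.0, 25.2, 99.7, 9.48 and 0 in EY mice 1 to 6, so the pooled sum hides a marker that was higher in most Y and EY mice. The epithelial markers (10 of 10) summed to 145460, 76439, 113840, 121630 and 118890 TPM in N, 95569, 125950, 119090, 76215 and 107810 in E, 114850, 62668 and 89812 in Y and 68620, 59194, 62027, 61336, 49719 and 59210 in EY mice. All EY mice were below all N mice, which goes with Krt13 and Krt4, the keratins of the upper layers, while the basal markers differed among themselves. Krt14 was at 10196 TPM or more in every EY mouse and at most 8724 in N, Krt15 at no more than 1115 in EY and at least 1721 in N, and Trp63 overlapped (6.12 to 8.45 in EY, 5.31 to 10.17 in N). Krt5, Cdh1 and Dsg3 were, like Krt14, higher in every EY mouse than in every N mouse, so these 4 of the 10 markers went against the fall of the sum. Sfn did so too, with overlap: it ran from 4420 to 7303 TPM in EY and from 3205 to 4690 in N, and only EY 5 lay inside the N range. Dsp also overlapped (316 to 566 in EY, 365 to 631 in N). No list of another cell type was at 0 in every mouse, and the part of these cells, or of the balance of basal and upper layers, in the changes of the members was not tested.

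Genes whose values followed those of Fscn1 most closely over the 19 mice were found by the root mean square difference of log2 values relative to the mean of N. Among 15592 genes of at least 1 TPM on average these were Ripk3 (0.484), Epop (0.641), Plk1 (0.66), Slc25a48 (0.681) and Trip13 (0.689). They are respectively a kinase of necroptosis, a partner of Polycomb and elongin complexes, a mitotic kinase, a mitochondrial carrier and a regulator of the spindle checkpoint and meiosis. Ripk3 was at 8.45 ± 4.10 TPM in N (SD, n = 5), 20.2 ± 3.77 in E (n = 5), 26.9 ± 11.1 in Y (n = 3) and 72.4 ± 19 in EY (n = 6). The nearest other member was Tagln2, with a difference of 1.20 at rank 442, and the farthest was Actb with 1.75 at rank 3075. The measure counts size as well as shape of a profile, so members with smaller changes than Fscn1 rank far from it.

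**Figure D5:**
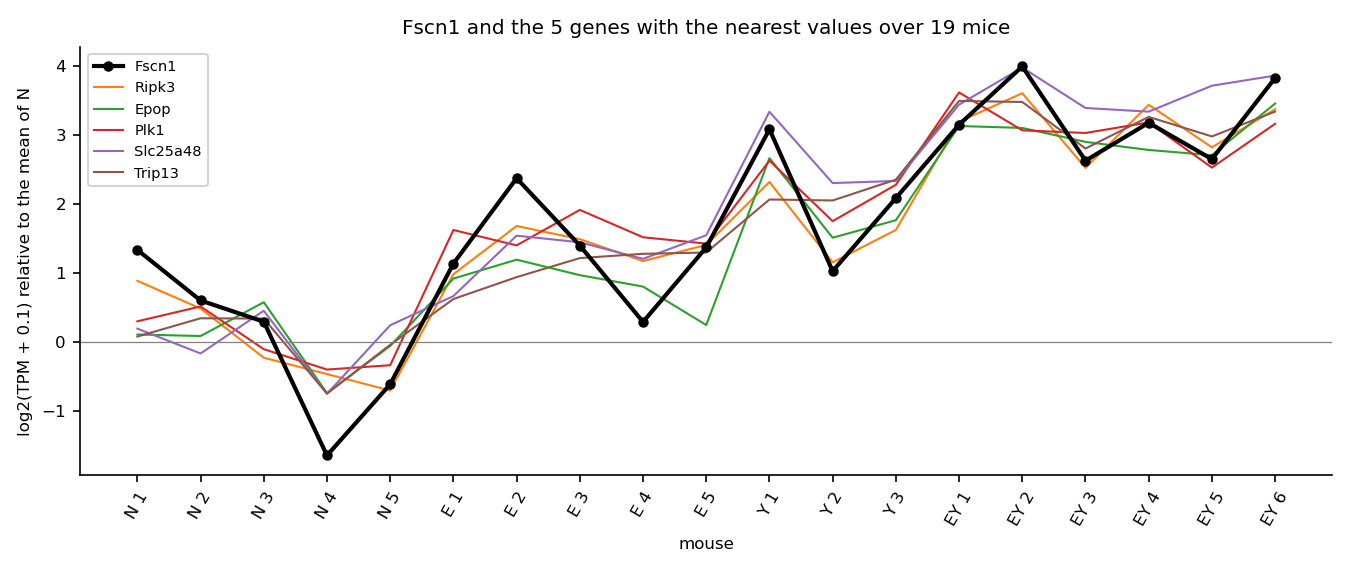
Log2 values of Fscn1 (black) and its 5 nearest genes in each of the 19 mice, relative to the mean of the N mice. In N 4 Fscn1 falls further than the other genes, to -1.64, and in the EY mice all 6 genes lie between 2.53 and 4.00.

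In the order of group means, 9 of the 10 members read N, E, Y, EY from low to high, and Tpm1 read E, N, Y, EY. Neighbours in that order differed past the threshold for no member between N and E or between Y and EY, while the step from E to Y was not tested here. The summed TPM of the 10 members was 2673 ± 381 in N (SD, n = 5), 3267 ± 269.9 in E (n = 5), 4454 ± 1179.6 in Y (n = 3) and 5928 ± 2004 in EY (n = 6), most of it from the actins.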

How the data were processed

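RNA of whole tongue epithelium from 19 mice was sequenced with 1 library per mouse. The authors aligned reads to GRCm39 with STAR 2.7.9, counted them with HTSeq 0.13.5 and deposited TPM values; how the counts became TPM is not stated. Reads per gene were recovered from the TPM as whole numbers for all 24680 genes above 0 (tolerance 0.00001), and 9 genes were at 0 in every mouse. Recovered depth ran from 8269674 to 11007304 reads, with group medians of 9637779 (N), 8848776 (E), 8679053 (Y) and 9448942 (EY), so Fscn1 at 13 reads in the lowest library is imprecise while Actb never had fewer than 5912.

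The 22745 genes that reached 0.1 TPM in 3 or more mice were tested on log2(TPM + 0.1) by limma 3.58.1 in R 4.3.3, with moderated variances that follow the mean, 4 group means, 6 contrasts and Benjamini-Hochberg adjustment over all genes tested. The script was tested on simulated data. For ratios, exact permutation tests (two-sided) were used, adjusted over 10 tests, with a threshold of 0.05. Tables and figures were made in Python 3.11.15 with numpy 2.4.6, pandas 2.3.3, scipy 1.17.1 and matplotlib 3.10.9.

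The members and lists were chosen with earlier results of these data known. Named genes are all members, their relatives, and in each further list up to 3 higher and 2 lower DEGs of EY against N with the largest log2 fold changes among those whose mice do not overlap, with the 5 genes nearest to Fscn1 and the most abundant gene of each marker list. Krt4, Krt5, Krt14, Krt15, Trp63, Cdh1, Dsg3, Dsp, Sfn, Myh11, Cspg4, Cnn1, Pecam1, Cdh5, Kdr, Tek, Tie1, Emcn, S100a9, Lyz2, Cd68 and Retnlg were singled out after their values were seen. Of 154 genes listed 153 were in the file and 148 were tested; 1 relative and 1 further list are not reported here.

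Each fit was repeated with a pseudocount of 1 or 0.01 TPM, a filter of 1 TPM or of any value above 0, quantile normalization or median-of-ratios scaling, N mice 1 to 3 as sole controls, only the groups compared, the replicate number as a block, robust moderation, a muscle marker covariate, an adjusted p of 0.05, no fold limit, voom on the recovered reads, each mouse left out in turn, no pseudocount for ratios and, chosen after seeing the data, a fit without N mice 1 and 2 and EY mouse 3. Promoter windows came from a RefSeq table of GRCm38.p6, an older build than the one the authors used, and no TPM value depends on them.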

Additional observations from a re-analysis of the deposited data

Results flagged for a closer look

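Of 54 groups of values examined, 6 held 1 mouse that stood apart from the others of its group by Dixon's gap rule, which flags about 1 group in 20 by chance. Tagln2 was at 213.5 TPM in N mouse 1, where the next N mouse had 152.5. The summed leukocyte markers of the same mouse reached 783.9 TPM against 266.9 in the next. Skeletal muscle markers summed to 385.0 TPM in N mouse 2 (next 104.3), to 210.9 in E mouse 5 (next 64.31) and to 1833 in EY mouse 3 (next 378.6). Smooth muscle and pericyte markers summed to 22.07 TPM in E mouse 2 (next 12.11). N mouse 1 had the highest control value of several members, so it lowers the differences from N, and EY mouse 3 had the lowest EY value of Fscn1, Flna, Tagln2, Tpm4 and Vcl. Whether carried-over tissue gave rise to these values was not tested.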

How the results depend on the processing

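Of 597 counts recomputed under the alternatives 558 stayed the same, as did 1919 of 2030 log2 fold changes of members (63 weaker, 17 stronger, 31 reversed) and 202 of 220 ratios. For the genes named from the wider actin machinery, 859 of 883 values stayed the same and 24 were weaker. In EY against N, scaling by median of ratios left 4 DEGs among the members. In Y against N the DEGs were 0 after scaling, 1 after quantile normalization, 1 with only 3 N mice, 1 with only the groups compared and, chosen after seeing the data, 7 without N mice 1 and 2 and EY mouse 3, and the changed members were 2, 3, 2, 1 and 8. In EY against E the DEGs were 2 after scaling, 3 after quantile normalization and 4 by voom. The replicate numbers give no pairing: same-numbered mice correlated from -0.0426 to 0.0764 in 24 pairs, 0 of them over 0.1, and 6 of 19 mice correlated best with their own number. With the number as a block, Y against N had 2 DEGs and 3 changed members, and the block moved no other count of called members by over 1.5 times. Signs turned only for differences that had not passed: in E against N for Flna (-0.143 with 3 N mice), Cnn2 (-0.007, quantile) and Tpm4 (-0.062 scaled, -0.047 quantile), and in the interaction for Actb (-0.017 scaled), Fscn1 (0.123 with pseudocount 1, 0.602 with 3 N mice, 0.138 with the block, 0.127 with the muscle covariate), Myh9 (-0.186) and Flna (-0.128) without the 3 mice, and Tagln2 (0.022 quantile, 0.137 with the covariate). The EY against E ratio of Tpm4 to Tpm1 was -0.66 without the 3 mice and no longer passed (exact permutation test, adjusted p = 0.0794). That fit leaves 5 mice in each group, where even the smallest possible p cannot alone pass after adjustment. The EY mice that remained were still all below the E mice, so this lost call decides nothing. Leaving out each mouse in turn, Y against N had 1 to 5 DEGs and 2 to 6 changed members, EY against E had 4 to 8 DEGs, and that ratio ran from -0.815 to -0.622. Other leave-out ranges that crossed 0 were -0.07 to 0.128 (Actb to Actg1, EY against Y), -0.303 to 0.074 (Tpm4 to Tpm1, Y against N), -0.023 to 0.171 (Tpm4, E against N) and, in the interaction, -0.258 to 0.236 (Actb), -0.062 to 0.298 (Actg1), -0.665 to 0.362 (Fscn1), -0.088 to 0.252 (Myh9), -0.075 to 0.278 (Flna), -0.519 to 0.039 (Tagln2) and -0.039 to 0.281 (Vcl). The interaction uses all 4 groups, so a fit of only the groups compared was not run for it.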
